A study of Mus musculus with 6 samples.

Results

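The 10 genes described here, from hepatic insulin signaling and the SGK kinase family, were examined in primary mouse hepatocytes with and without IL-1β. They are the insulin receptor gene Insr, its docking proteins Irs1 and Irs2, the PI3K regulatory subunit gene Pik3r1, the kinase gene Akt2, the transcription factor genes Foxo1 and Foxo3, and the kinase genes Sgk1, Sgk2 and Sgk3. They were chosen by name with their fold changes and calls in this same comparison of IL-1β with control in view, and were found by gene symbol in the deposited table, which holds all 10 among 23282 genes. Of these, 9 had enough counts to enter the test across genes. Hepatocytes came from livers of C57BL/6N mice by collagenase perfusion, and the labels give no age or sex. After 3 h in culture the medium was changed, and 3 control samples received no treatment while 3 samples received recombinant IL-1β protein for 24 h. The submitters' description speaks of 2 samples in each group while naming 3, and all 3 with counts were used here. All 6 samples share the isolation, the plating and the complete M199 medium, and whether this medium held insulin or a glucocorticoid was not given in the sources used here. The study gives a dose of recombinant IL-1β for a companion assay on primary hepatocytes, but none specifically for the sequenced cultures. No source says whether the samples came from separate mice, so the errors measure only the spread between these samples, which may be technical.

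Insulin binding activates the insulin receptor, which phosphorylates IRS1 and IRS2, and these recruit PI3K. The lipid made by PI3K brings AKT2 to the membrane, where PDK1 and mTORC2 activate it, and AKT then phosphorylates FOXO1 and FOXO3 and keeps them out of the nucleus. In liver, this pathway turns glucose production down and lipid synthesis up, and FOXO1 in turn induces Irs2 and the insulin receptor gene when insulin is low. SGK1, SGK2 and SGK3 are relatives of AKT that are activated by the same upstream kinases, and Sgk1 is a known target of glucocorticoids.

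Promoter windows of 300 bases, from 250 before to 50 after an annotated start, were available from RefSeq (GRCm38.p6) for 7 of the 10 genes, in 16 windows, and Insr, Sgk2 and Sgk3 had none. The windows of Irs1 and Irs2 are shown because these paralogs share a pair of motifs and only Irs1 was called below, and a window of Sgk1 is shown for its glucocorticoid receptor motif. Capitals mark the insulin response core CAAAACAA, the E-box CACGTG and the palindromic glucocorticoid receptor motif, each searched on both strands, with every line read 5′ to 3′ along the transcribed direction.
Irs1, chr1:82291390-82291689, minus strand: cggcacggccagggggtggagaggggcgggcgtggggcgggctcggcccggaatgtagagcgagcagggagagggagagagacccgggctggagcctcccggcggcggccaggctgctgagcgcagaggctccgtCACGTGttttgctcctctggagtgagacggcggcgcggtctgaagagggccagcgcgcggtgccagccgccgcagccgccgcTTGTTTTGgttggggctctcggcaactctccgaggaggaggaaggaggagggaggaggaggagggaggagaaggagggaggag
Irs2, chr8:11008880-11009179, minus strand: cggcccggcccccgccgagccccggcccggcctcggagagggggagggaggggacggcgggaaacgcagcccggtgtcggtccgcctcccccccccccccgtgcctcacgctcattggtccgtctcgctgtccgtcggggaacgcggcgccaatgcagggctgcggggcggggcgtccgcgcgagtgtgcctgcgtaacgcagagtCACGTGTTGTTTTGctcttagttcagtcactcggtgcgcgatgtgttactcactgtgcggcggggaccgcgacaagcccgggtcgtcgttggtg
Sgk1, chr10:21993640-21993939, plus strand: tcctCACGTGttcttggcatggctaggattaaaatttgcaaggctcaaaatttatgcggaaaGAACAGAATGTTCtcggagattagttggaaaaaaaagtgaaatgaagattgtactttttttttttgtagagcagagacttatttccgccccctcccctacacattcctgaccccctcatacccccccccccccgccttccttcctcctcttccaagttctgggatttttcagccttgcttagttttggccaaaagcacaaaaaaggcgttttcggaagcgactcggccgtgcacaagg
In the Irs1 window the insulin response core was read on the opposite strand as TTGTTTTG, starting at base -33 from the annotated start, and the E-box started at -115. In the Irs2 window the same letters started at -38, directly after the E-box at -44. The insulin response core occurred in 2.51% of 32851 windows of this length over all genes and the E-box in 7.15%. The Sgk1 window, 1 of 6 for this gene, held GAACAGAATGTTC from base -188, a motif found in 0.475% of all windows. Neither the FOXO core TGTTTAC (3.65% of all windows), the NF-κB motif (1.20%), the HNF4 motif CAAAGTCCA (0.475%) nor the full CRE TGACGTCA (1.79%) was found in any of the 16 windows. The GC box GGGCGG (35.7% of all windows) and TGACG, which is part of the full CRE (20.8%), were searched too and are not marked. A match is a description of letters and not evidence of binding. Only the letters given were searched, so a missing match does not mean that other forms of a motif are absent. The Irs1 start used by RefSeq is that of the deposited table, whereas the Irs2 start lies 499 bases farther upstream. The start of the Sgk1 window shown lies 111706 bases downstream of the Sgk1 start in the deposited table.

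The libraries held between 9538741 and 11105408 counts, and 1 count corresponded to between 0.0895 and 0.107 CPM (counts scaled to the size of the library, with TMM factors). QuantSeq reads the 3′ end of each mRNA, so CPM is not divided by transcript length, and differences in mapping near the 3′ end still enter any comparison between genes. Among all genes tested with edgeR, 6.44% were called lower and 6.97% higher after IL-1β. Of 11 hepatocyte markers tested with edgeR, 7 were lower after IL-1β and 0 higher (0 higher at an unadjusted p below 0.05, with DESeq2 or with limma), led in abundance by Alb and Apoe. DESeq2 called 6 of the hepatocyte markers lower and limma 3. The 12 hepatocyte markers listed summed to 35725 to 36923 CPM in control and 29414 to 31664 CPM in IL-1β libraries. In control, mean levels ran from 16200 CPM for Alb down to 7.64 for Hpd, 3.22 for Tat, 2.65 for Cps1 and 0.717 for Ass1. Ass1 was not tested. Of 13 macrophage markers 9 were tested and 0 called (2 higher at an unadjusted p below 0.05, and 0 with DESeq2 or limma), with summed levels of 238 to 269 CPM in control and 238 to 273 CPM after IL-1β, most of it Cd68, while Cd163 had no count in any library. Of 10 endothelial markers tested with edgeR, Kdr and Clec4g were lower (log2 fold changes of -1.49 and -2.87, adjusted p = 0.0051 and 1.9e-05) and Lyve1 higher (0.45, adjusted p = 0.0274), with a list median of -0.41. They summed to 87.5 to 94.1 CPM in control and 85.1 to 89.7 CPM after IL-1β, and the 10 stellate markers to 21.7 to 25.5 and 22.8 to 28.9 CPM. The 7 cholangiocyte markers summed to 317 to 329 CPM and 236 to 240 CPM, and 2 were tested. Spp1 was called lower, from 190 to 82.7 CPM. Sox9 went the other way, from 134 to 155 CPM with no overlap of the groups. Its log2 fold change was 0.21 (edgeR adjusted p = 0.0519), and it was called higher with DESeq2 but not with limma. In such bulk samples, fewer cells of a type and less RNA per cell cannot be told apart, and the part of these markers in the results on the insulin and SGK genes was not tested.

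In control hepatocytes the levels of the 10 genes spanned a 109-fold range. Pik3r1 was the most abundant, at 94.5 ± 11.3 CPM (SD, n = 3), followed by Insr at 54.1 ± 3.22 CPM, Akt2 at 47.7 ± 4.62 CPM and Foxo1 at 29.6 ± 2.73 CPM. The kinases Sgk2 and Sgk3 stood at 20.3 ± 3.07 and 15.97 ± 2.58 CPM, above Irs1 at 8.06 ± 0.502 CPM. Sgk1 at 5.08 ± 0.996 CPM, Irs2 at 3.72 ± 1.44 CPM and Foxo3 at 0.866 ± 0.679 CPM were the lowest. Along this order the ranges of neighbours overlapped for Insr and Akt2 and for Sgk1 and Irs2, and for no other neighbours. In the control libraries the docking protein genes had fewer counts than the gene of the receptor they serve. There were 6.26 to 7.65 Insr counts for each Irs1 count and 10.9 to 21.1 for each Irs2 count. The annotated 3′ ends of these genes differ between sources. The deposited table ends Insr at base 3150922, Irs2 at 10986964 and Irs1 at 82233105. GENCODE M21 ends them at 3122061, 10984681 and 82233101. The part of these differences in the ratios was not tested. Within the AKT family, Akt1 took 68.5 to 74.1% of the counts in control libraries and Akt2 25.3 to 30.4%.

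**Figure D1:**
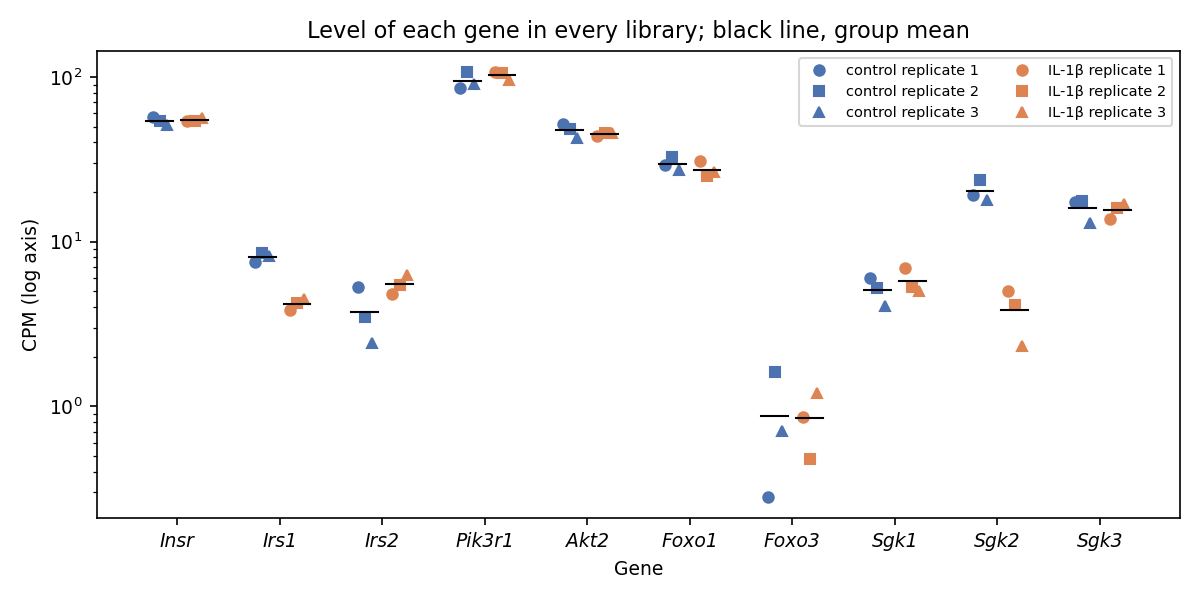
Level of each of the 10 genes in CPM (log axis) in the 3 control libraries (blue) and the 3 IL-1β libraries (orange), with replicates by symbol and the group mean as a black line. The groups separate for Irs1 and Sgk2 and overlap for the other genes, and the control libraries of Foxo3 spread from 0.282 to 1.61 CPM.

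The fold changes and calls below compare IL-1β with control for genes that were proposed with this comparison in view, so they are descriptions and carry no p-value. A gene is called when its adjusted p is below 0.05 in the edgeR fit over all 11657 genes tested. Of the 9 genes tested, 2 were called lower and 0 higher, where 6.44% of all genes tested were called lower and 6.97% higher (0 higher at an unadjusted p below 0.05, with DESeq2 or with limma). The same 2 genes, Irs1 and Sgk2, were the ones whose groups did not overlap, where 28.2% of all genes tested showed no overlap, 14.2% with IL-1β lower and 14% with IL-1β higher. Since this comparison chose the genes, nothing is read from these shares. The median log2 fold change was -0.04 over the 9 genes and -0.0018 over all genes tested.

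Insr, which lies on the minus strand at chr8:3150922-3279617 (GRCm38, as in the deposited table), had levels of 57.5, 53.7 and 51.1 CPM in control and 53.7, 53.7 and 56.5 CPM in IL-1β libraries. The groups overlapped, and the log2 fold change was 0.01 (standard error 0.092). Its 95% interval runs from 0.885 to 1.15 times the control level, and the sign turned with upper-quartile or total-count scaling.

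Irs1, the docking protein shared by most insulin-responsive tissues, stood lower in the IL-1β samples. The gene lies on the minus strand at chr1:82233105-82291439, and the controls held 80, 95 and 81 counts against 36, 44 and 48 after IL-1β. In CPM these are 7.52, 8.504 and 8.16 against 3.85, 4.23 and 4.46, so every IL-1β library lay below every control. The log2 fold change was -0.94 (standard error 0.24), or 0.518 times the control mean, with a 95% interval of 0.368 to 0.735. Leaving out each sample in turn gave log2 fold changes between -0.99 and -0.88, all called.

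Irs2, the docking protein that carries much of the insulin signal in liver, went the other way without being called. It lies on the minus strand at chr8:10986964-11008430, with 56, 39 and 24 counts in control and 45, 57 and 67 after IL-1β. These are 5.26, 3.49 and 2.42 CPM against 4.81, 5.48 and 6.23 CPM, so control replicate 1 stood above IL-1β replicate 1. The log2 fold change was 0.56 (standard error 0.31), its 95% interval runs from 0.953 to 2.29 times control, and leaving out each sample gave 0.33 to 0.89. The ratio of Irs1 to Irs2 counts within a library, which does not depend on scaling, was 1.43, 2.44 and 3.38 in control and 0.800, 0.772 and 0.716 after IL-1β. Irs1 thus made up 69.0 ± 9.31% (SD, n = 3) of IRS counts in control and 43.2 ± 1.38% after IL-1β, and the sum of both genes was 11.8 ± 1.11 and 9.68 ± 1.02 CPM. GENCODE M21 places genes on the opposite strand over exons of Irs1 (Gm9747) and Irs2 (9530052E02Rik), neither of which covers the 3′ end, and whether the counting used strand was not given in the sources used here. The table lists 9530052E02Rik with 0 counts in every library.

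Pik3r1, Akt2 and Foxo1, which carry the signal from the docking proteins to the nucleus, were not called. Pik3r1 (minus strand, chr13:101680761-101768217) had 85.7, 107 and 90.5 CPM in control and 107, 105 and 95.4 CPM after IL-1β. Its log2 fold change was 0.12 (standard error 0.088), with a 95% interval of 0.956 to 1.23 times control. Akt2 (plus strand, chr7:27591560-27639453) had 51.9, 48.5 and 42.7 CPM in control and 43.7, 45.5 and 45.8 CPM after IL-1β. The log2 fold change was -0.08 (standard error 0.10) and the interval 0.818 to 1.09 times control. Foxo1 (plus strand, chr3:52268337-52350109) had 29.1, 32.6 and 27.2 CPM in control and 30.7, 24.9 and 26.3 CPM after IL-1β. Its log2 fold change was -0.12 (standard error 0.12), with an interval of 0.771 to 1.09 times control. For these 3 genes and Insr the libraries of the groups overlapped and the intervals all lie between 0.771 and 1.23 times control.

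Foxo3 (minus strand, chr10:42185786-42276742) was too sparse to test. It had 3, 18 and 7 counts in control and 8, 5 and 13 after IL-1β, or 0.866 ± 0.679 and 0.848 ± 0.364 CPM (SD, n = 3). A difference was not detectable at this depth. Foxo1 took 97.3 ± 1.89% of the counts of both genes in control and 97.0 ± 1.27% after IL-1β.

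**Figure D2:**
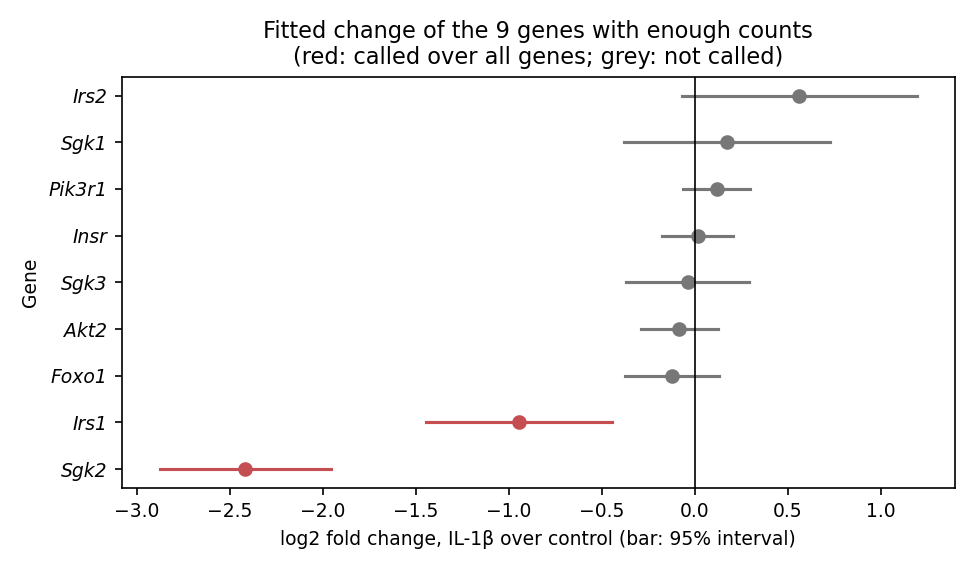
Fitted log2 fold change of IL-1β over control for the 9 genes tested (points) with 95% intervals (bars), in red where the gene was called over all genes and in grey where it was not. Sgk2 at -2.42 and Irs1 at -0.94 stand apart from 0, and the bars of Irs2 and Sgk1 are wide.

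Among the SGK kinases the change was that of Sgk2. This gene lies on the plus strand at chr2:162987481-163014139 and had 205, 265 and 177 counts in control against 47, 43 and 25 after IL-1β. The levels were 19.3, 23.7 and 17.8 CPM in control and 5.02, 4.13 and 2.32 CPM after IL-1β, with no overlap and IL-1β replicate 3 the lowest. The log2 fold change was -2.42 (standard error 0.22), which is 18.9% of the control mean, with a 95% interval of 0.136 to 0.258 times control. It stayed between -2.65 and -2.15 with each sample left out in turn.

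Sgk3, which carries a phosphoinositide-binding PX domain and lies on the plus strand at chr1:9798130-9902568, had 17.4, 17.5 and 12.998 CPM in control and 13.8, 16.04 and 16.8 CPM after IL-1β. The groups overlapped, the log2 fold change was -0.04 (standard error 0.16), its sign turned when single samples were left out, and the interval runs from 0.774 to 1.22 times control. Sgk1, on the plus strand at chr10:21882184-21999902, had 64, 58 and 40 counts in control and 65, 55 and 54 after IL-1β. These are 6.01, 5.19 and 4.03 CPM against 6.95, 5.28 and 5.02 CPM, which overlap. The log2 fold change was 0.17 (standard error 0.27), with an interval of 0.768 to 1.65 times control.

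The make-up of the SGK family differed accordingly between the groups. Sgk2 took 45.2, 51.1 and 51.2% of SGK counts in the control libraries and 19.5, 16.2 and 9.62% in the IL-1β libraries. Sgk3 took 38.6 ± 1.88% (SD, n = 3) in control and 62.1 ± 8.09% after IL-1β, and Sgk1 12.3 ± 1.59% and 22.8 ± 3.58%. The 3 genes summed to 41.3 ± 5.91 CPM in control and 25.1 ± 0.846 CPM after IL-1β. Within a library there were 1.11 to 1.37 Sgk2 counts for each Sgk3 count in control and 0.138 to 0.364 after IL-1β.

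**Figure D3:**
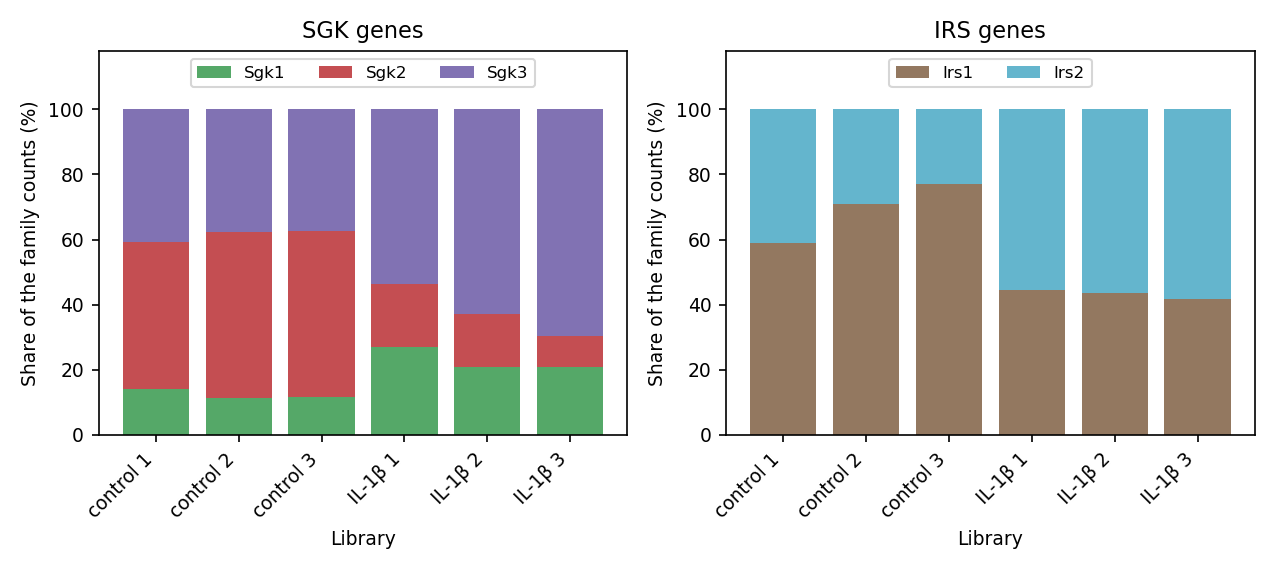
Share of each gene in the counts of its family, in percent, for the SGK genes (left) and the IRS genes (right) in each of the 6 libraries. The Sgk2 share is at least 45.2% in every control library and at most 19.5% in every IL-1β library, and the Irs1 share is at least 58.8% in control and at most 44.4% after IL-1β.

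The genes of mean level of at least 10 CPM whose profiles over the 6 samples were closest to that of Sgk2, by the root mean square difference of centred log2(CPM + 1) values among 7979 genes, were Sprr1a (0.298), Serpinf2 (0.300), Bcl2l14 (0.317) and Cldn4 (0.320). Serpinf2 encodes α2-antiplasmin, Cldn4 a tight junction claudin, Bcl2l14 a member of the BCL2 family, and Sprr1a a small proline-rich protein of the cornified envelope. Their mean levels in control and IL-1β samples were 1043 and 239 CPM for Sprr1a, 83.6 and 14.6 CPM for Serpinf2, 22.97 and 5.19 CPM for Bcl2l14, and 46.8 and 9.57 CPM for Cldn4.

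The wider pathway was read from 9 gene lists, which were put together with earlier results of these data known, so their shares beside the background and their adjusted p-values are descriptive and not independent evidence. Outside the 10 genes, 113 genes of these lists were tested with edgeR, of which 19 were higher and 7 lower, or 23.01% called against 13.4% of all genes tested, with a median log2 fold change of 0.03. Without IL-1β replicate 2, 11 were called higher.

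The receptor and adaptor list had 8 further genes tested with 0 called, and the unadjusted p was below 0.05 for 2 of them, Sh2b1 and Gab1 (0 called with DESeq2 or limma). Sh2b1, an adaptor that enhances receptor signaling, stood at -0.34 on the log2 scale (edgeR adjusted p = 0.0665) with no overlap of the groups, and its call depended on the setting. It was called with the replicate block (0.0432), upper-quartile (0.0417) or total-count scaling (0.0267), no filter (0.0474), and without IL-1β replicate 1 (0.0403). Gab1 stood at -0.35 (adjusted p = 0.138), Frs2 0.41 (0.277) and the most abundant adaptor, Grb2, 0.01 at 91.8 and 92.6 CPM. In the PI3K list, Pik3c2a, a class II PI3K, rose from 77.1 ± 1.16 to 119 ± 7.88 CPM (log2 fold change 0.62, edgeR adjusted p = 2.12e-06), the only call among the 8 genes tested other than Pik3r1, itself not called. The class I regulatory subunits Pik3r2 and Pik3r3 had log2 fold changes of -0.42 (adjusted p = 0.101, and 0.0388 without IL-1β replicate 3) and 1.19 (0.198, at 4 to 17 counts), and the adaptor Pik3ap1 -0.33 (0.174). Of 18 further genes of the PDK1, AKT and mTOR list, Rps6kb1, the S6 kinase, was called at a log2 fold change of 0.25 (edgeR adjusted p = 0.0308). It lost the call when either of control replicates 2 and 3 or of IL-1β replicates 2 and 3 was left out (adjusted p of 0.0525 to 0.181). The call was also lost with upper-quartile scaling (0.0602), total-count scaling (0.105) or limma (0.166). Rictor, Tsc1 and Rps6kb2 had log2 fold changes of 0.21, 0.18 and 0.83, with adjusted p of 0.299, 0.398 and 0.379, and Rps6 0.03.

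Genes that restrain insulin signaling were the list with the most increases. Of 18 tested with edgeR, 7 rose and 1 fell, where 6.97% of all genes tested rose and 6.44% fell, and the list median was 0.16. Socs3, a cytokine-induced protein that binds the insulin receptor and IRS proteins, rose from 18.8 ± 2.19 to 54.8 ± 2.44 CPM (both with SD of 3 samples). Its log2 fold change was 1.54 (standard error 0.11) at an edgeR adjusted p = 1.31e-10. In counts this is 181, 204 and 211 in control against 536, 569 and 564 after IL-1β. Ptpn2, a phosphatase of the insulin receptor, rose from 28.1 ± 4.96 to 53.3 ± 6.78 CPM (0.92, adjusted p = 4.72e-06) and Ptprf, a receptor-type phosphatase, from 245 ± 2.10 to 341 ± 10.2 CPM (0.48, adjusted p = 3.67e-06). Grb14, an adaptor that inhibits the receptor kinase, fell from 52.3 ± 5.09 to 34.1 ± 5.59 CPM (-0.62, adjusted p = 0.000395). The other calls, named after their values were seen, were Socs1, Pid1, Trib3 and Trib1. Socs1 had 23, 11 and 2 counts in control and 36, 67 and 31 after IL-1β (log2 fold change 1.95, adjusted p = 0.0074, and 0.111 without IL-1β replicate 2). Pid1 rose by 0.62 on the log2 scale (edgeR adjusted p = 0.0023). With limma neither Pid1 (0.0744) nor Socs1 (0.0756) was called. Trib3 and Trib1, at 0.33 and 0.25, had adjusted p of 0.0236 and 0.0484 and lost the call in 4 and 5 of 6 leave-one-out fits, where the adjusted p reached 0.137 and 0.223. Trib1 also lost it with DESeq2 (0.0552), upper-quartile scaling (0.0826), total-count scaling (0.151) or limma (0.285). Trib3 also lost it with total-count scaling (0.0676) or limma (0.103). The number of increases was 4 without IL-1β replicate 2, and 3 with limma on log2(CPM + 1). Socs1 and Socs3 also act on cytokine receptors at large.

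**Figure D4:**
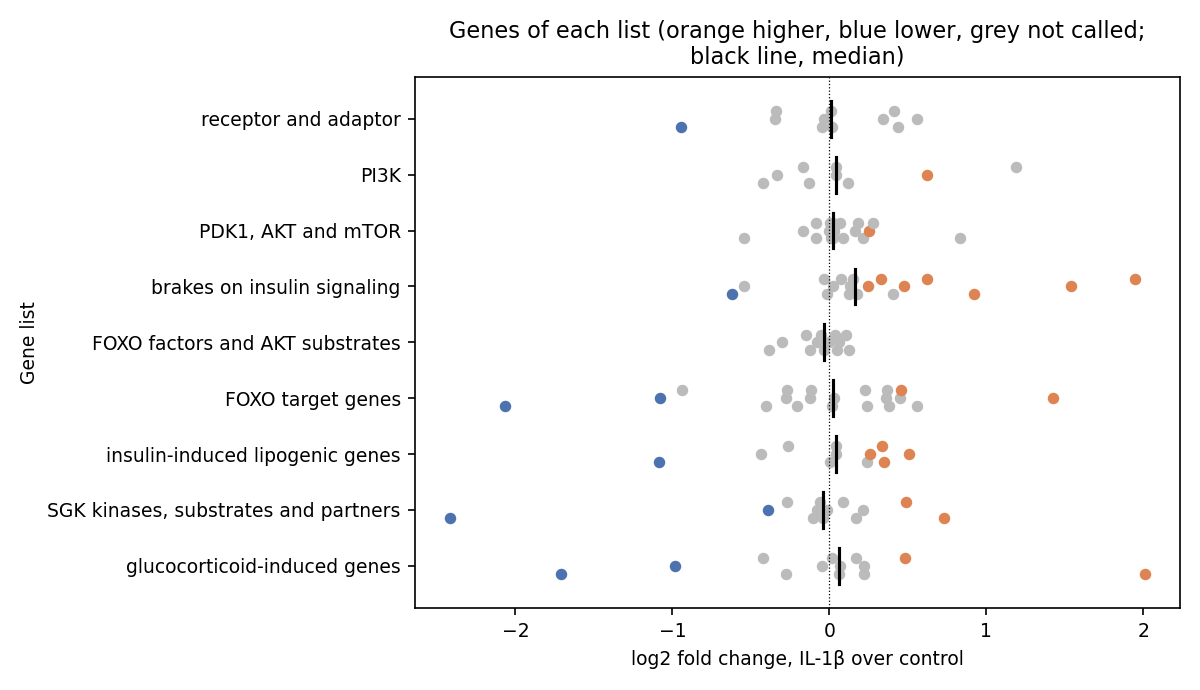
Log2 fold change of IL-1β over control for each tested gene of 9 gene lists, with genes called higher in orange, called lower in blue, not called in grey, and the list median as a black line. The list of brakes on insulin signaling has 7 orange points and a median of 0.16, and the medians of the other lists lie between -0.04 and 0.06.

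Genes downstream of the pathway held calls in both directions, where 6.97% of all genes tested were called higher and 6.44% lower. Of 13 tested FOXO factors and AKT substrates, 0 were called (0 at an unadjusted p below 0.05, with DESeq2 or with limma), among them Gsk3b at 0.11, Tbc1d1 at -0.30, Bad at -0.15, Mdm2 at -0.08 and Ywhab at -0.04 on the log2 scale. Of 18 further FOXO target genes 2 rose and 2 fell. Igfbp1, a classical insulin-repressed FOXO1 target, fell from 257 ± 32.4 to 61.3 ± 4.21 CPM (log2 fold change -2.07, edgeR adjusted p = 5.05e-15), with 2918, 3106 and 2184 counts in control against 532, 642 and 702 after IL-1β. Mttp, which loads lipid onto lipoproteins, fell from 26.0 ± 0.769 to 12.3 ± 1.68 CPM (-1.08, adjusted p = 3.95e-06). Sod2, the mitochondrial superoxide dismutase and also a known NF-κB target, rose from 318 ± 49.6 to 854 ± 20.6 CPM (1.43, adjusted p = 9.77e-13). Bnip3 rose by 0.46 (edgeR adjusted p = 0.0111, and 0.0906 without IL-1β replicate 1), and missed the threshold with limma (0.0563). The gluconeogenic target G6pc had 0, 5 and 6 counts in control and 1, 0 and 11 after IL-1β, and like Pck1 it was too sparse to test.

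Of 11 insulin-induced lipogenic genes tested, 4 rose and 1 fell, where 6.97% of all genes tested rose and 6.44% fell. Scd1, the stearoyl-CoA desaturase, fell from 480 ± 66.1 to 226 ± 12.4 CPM (log2 fold change -1.08, edgeR adjusted p = 1.69e-10). Acaca, Elovl6, Mid1ip1 and Fasn, which serve fatty acid synthesis and elongation, rose by 0.51, 0.35, 0.33 and 0.26 on the log2 scale, with adjusted p of 0.00995, 0.0242, 0.0136 and 0.0468. None of these 4 calls passed with limma, and DESeq2 called 3 of them, all but Fasn. Fasn was named after its values were seen, and its fits with samples left out are not given here. Acaca lost its call without control replicate 2 (0.0721) or IL-1β replicate 2 (0.0982), Mid1ip1 without IL-1β replicate 3 (0.0753), and Elovl6 without control replicate 3 (0.143) or any 1 of the IL-1β replicates (0.0519 to 0.0922).

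In the list of SGK substrates and partners, 10 genes beside the kinases were tested, of which 2 rose and 1 fell. Among all genes tested, 6.97% rose and 6.44% fell. Ndrg1, the standard substrate by which SGK1 activity is read, rose from 82.8 ± 3.09 to 137 ± 10.7 CPM (log2 fold change 0.73, edgeR adjusted p = 1.7e-07), and its relative Ndrg2 fell from 76.3 ± 10.02 to 58.2 ± 1.63 CPM (-0.39, adjusted p = 0.0058, and 0.0783 without control replicate 2). Nedd4l, a ubiquitin ligase that SGK1 phosphorylates, rose from 50.1 ± 8.36 to 70.4 ± 8.86 CPM (0.49, adjusted p = 0.0034, and 0.0501 without IL-1β replicate 2), while Nedd4 at 252 and 242 CPM had a log2 fold change of -0.06. With limma neither Nedd4l (0.118) nor Ndrg2 (0.101) was called. These are transcript levels, and kinase activity was not measured. Of 12 glucocorticoid-induced genes beside Sgk1, 2 rose and 2 fell, beside the same shares of 6.97% and 6.44% over all genes tested. Lcn2 and Mt2, which are also acute phase genes, rose by 2.01 and 0.48 on the log2 scale (edgeR adjusted p = 1.43e-16 and 8.72e-07). Zbtb16 and Tat fell by 0.98 and 1.71 on the log2 scale (adjusted p = 0.0021 and 0.0088, and 0.0662 for Tat without IL-1β replicate 1), and Zbtb16 missed the threshold with limma (0.0561).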

How the data were processed

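The deposited table of the whole series gives raw counts per gene for 3 control and 3 IL-1β-treated samples of primary mouse hepatocytes, sequenced by QuantSeq 3′ mRNA-Seq with 75-nt single-end reads. Per the labels, the authors aligned reads with Bowtie2 and normalized with edgeR (TMM and CPM), and the submitters' processing notes name mm10 and GRCm38. The counting tool and the handling of multi-mapped reads are not given in the sources used here. The authors also deposited log2 normalized values and their group averages, a linear fold change (ratio) and an unadjusted p-value, none of which was used.

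Counts were tested in R 4.3.3 with edgeR 4.0.16 (filterByExpr, TMM, quasi-likelihood test, all 6 samples, no covariates) with Benjamini-Hochberg adjustment over 11657 genes. Standard errors are the fold change divided by the square root of F, and 95% intervals use the moderated degrees of freedom. Counts per library ranged from 9538741 to 11105408, and intervals cover replicate spread as fitted. Replicate libraries differed by more than counting noise (chi-square per degree of freedom of 4.26 to 10.6). Control and IL-1β samples of the same replicate number deviated with correlations of 0.075, 0.027 and -0.005. These values do not settle whether samples were paired, and the main fit did not use the numbers as pairs. Alternatives were DESeq2 1.42.0, limma 3.58.1 on log2(CPM + 1), other scalings and filters, a replicate block, leaving out each sample, omitting Rn45s and a threshold of 0.01.

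The members, gene lists and motifs were chosen with earlier results of these data known. Named genes are the members, up to 4 genes per pathway list with the smallest adjusted p and its most abundant gene, the 4 genes closest in profile to the member that fell most, and the leading genes of marker lists. Promoter windows come from RefSeq and gene overlaps from GENCODE M21, both on GRCm38.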

Additional observations from a re-analysis of the deposited data

How the results depend on the processing

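With each of the 15 alternatives Irs1 and Sgk2 stayed called lower and no other of the 10 genes was called, with log2 fold changes from -0.997 to -0.81 for Irs1 and from -2.65 to -2.15 for Sgk2. Samples of the same replicate number showed little correlation of their deviations (0.075, 0.027 and -0.005), which does not settle whether they were paired. A fit that took the replicate number as a block called 2 of the 10 genes lower and 0 higher, the numbers found without it. That fit called 20 further pathway genes higher and 9 lower, against 19 and 7. Leaving out each sample gave 11 to 19 pathway genes higher and 7 to 8 lower, 4 to 7 brakes on insulin signaling higher, and 614 to 875 genes higher and 517 to 721 lower among all genes. With limma, 8 pathway genes and 3 brakes were higher, and 496 genes were higher and 435 lower in all. The threshold of 0.01 gave 12 pathway genes higher, and 537 genes higher and 459 lower in all, and is stricter by construction; the cause of the lower counts with limma was not tested. Total-count scaling gave 662 genes higher and 1008 lower in all, and upper-quartile scaling 733 and 886, against 812 and 751. Signs turned only for values near 0. Insr, at 0.01, was -0.015 with upper-quartile and -0.039 with total-count scaling and -0.027 to 0.059 with each sample left out. Sgk3 was -0.17 to 0.045 with each sample left out. Grb2 was -0.015 and -0.040 with those scalings and -0.019 to 0.055 with each sample left out, Rps6 -0.025 with total counts and -0.024 to 0.077, and Ywhab -0.058 to 0.010. Depth limits Foxo3, Irs2 and Sgk1, whose control libraries held between 3 and 64 counts.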

Other observations

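The 3 nearest tested genes on each side of Sgk2 and of Irs1, looked up after the values of both were seen, were not called. Some of them are far away, such as Lpin3 and Chd6 at 2081 and 1878 kb from Sgk2. Serpine2, Cul3 and Dock10 lie 2374, 1893 and 1475 kb from Irs1. The 3 nearest tested genes on each side of Sgk2 had log2 fold changes of -0.61 (Lpin3), -0.25 (Chd6), 0.03 (Srsf6), -0.43 (Ift52, 3.33 kb away), 0.12 (Oser1) and -0.34 (Fitm2), with edgeR adjusted p from 0.170 to 0.919. Hnf4a, the hepatocyte nuclear receptor gene, lies 533 kb from Sgk2 on the same chromosome and fell from 87.7 to 42.7 CPM (log2 fold change -1.04, edgeR adjusted p = 1.6e-09). Hnf4a is thus nearer to Sgk2 than Lpin3 and Chd6 are. Around Irs1, the 6 nearest tested genes had log2 fold changes from -0.008 (Cul3) to 0.23 (Dock10), with adjusted p of at least 0.378.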
